A study of Mus musculus with 151 samples.

Results

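Cumulus cells of 12-week-old female mice were compared between mice conceived by in vitro fertilization (IVF) and mice conceived by mating (Natural). The members of this comparison were the 10 cumulus libraries in the count table of that age, 5 labelled IVF and 5 labelled Natural, out of 151 sample records in the series. All 35976 gene names of the table were read, and 10280 of them passed the expression filter and were tested. Per the methods of the study, both groups were daughters of CF-1 females and B6/SJL males. For the IVF group, oocytes of superovulated CF-1 females were fertilized in vitro, cultured to the blastocyst stage and transferred to recipients, whereas the Natural group was conceived in vivo. All 12-week daughters were themselves superovulated with eCG and hCG, so every cumulus cell here came from a hormone-stimulated ovulation. The cells were freed with hyaluronidase and collected as pools, and the labels do not say how many mice each pool held. Every p-value therefore measures the spread between pools, which may be partly technical.

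Cumulus cells are the granulosa cells that surround the oocyte. They feed it through gap junctions with amino acids, pyruvate and sterols that it takes up or makes poorly, and after the ovulatory surge they lay down a hyaluronan matrix that loosens the complex. Hyaluronan synthase 2 (Has2) makes that matrix, and tumor necrosis factor alpha-induced protein 6 (Tnfaip6) and pentraxin 3 (Ptx3) cross-link it. After ovulation the cells turn toward progesterone production.

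Of these 3 defining markers, Tnfaip6 and Ptx3 were present and Has2 was nearly absent. Tnfaip6 stood between 141 and 616 CPM (counts relative to library size, scaled by the TMM factors of edgeR) in all libraries, and Ptx3 between 11.0 and 119 CPM. Has2 held 0 to 12 reads per library and did not pass the filter. The cells also held the steroidogenic enzyme transcripts Hsd3b1 (12694 ± 3185 CPM in Natural, SD, n = 5) and Cyp11a1 (8594 ± 3636 CPM), and the inhibin subunit transcript Inha (1289 ± 386 CPM). The hyaluronan synthase was thus at or near 0 in cells in which Tnfaip6 and Ptx3 were present. Has2 was not the only listed gene that did not pass the filter. Of 21 listed genes of cumulus expansion and ovulatory signalling 15 passed, and Hapln1, Areg, Ptger4, Pgr and Il6 did not. Of 17 genes of granulosa identity and hormone signalling 13 passed, and Amh, Cyp19a1, Nr0b1 and Wt1 did not.

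The libraries fell into 2 sets by their names, 6 that end in GC (3 IVF and 3 Natural) and 4 that do not (2 and 2), and the sets differed more than the groups did. Total counts ranged from 2532824 to 6345249 per library. The first principal component held 36.4% of the variance and separated the sets, and 2463 genes (24.0% of those tested) differed between the sets at an adjusted p below 0.05 in edgeR's quasi-likelihood test. Within the second set, the 2 pools of each group were unusually alike. Their biological coefficient of variation over genes above 50 CPM was 0.102 and 0.116, against 0.219 to 0.281 between GC pools of a group. Their counts, halved because most low counts in the table were even, differed by more than counting noise (chi-square per degree of freedom 7.18 and 14.3), which does not tell separate pools from technical repeats of an amplified library. Each was kept as a sample because its label is separate, and the main results are also given with each such pair summed or averaged. IVF replicate 3 stood apart from the other GC libraries on both components after the set was removed. Natural replicate 5 carries a library name whose leading fields match those of oocytes labelled IVF, so the calls, and many of the medians, are also given without it. A single transcript, osteopontin (Spp1), took 14.2% to 37.2% of all counts in a library, with 24.6% ± 6.94 in Natural and 22.0% ± 8.68 in IVF (SD, n = 5 each; exact permutation test within sets, two-sided, p = 0.683, where the smallest possible p is 0.0167).

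**Figure D1:**
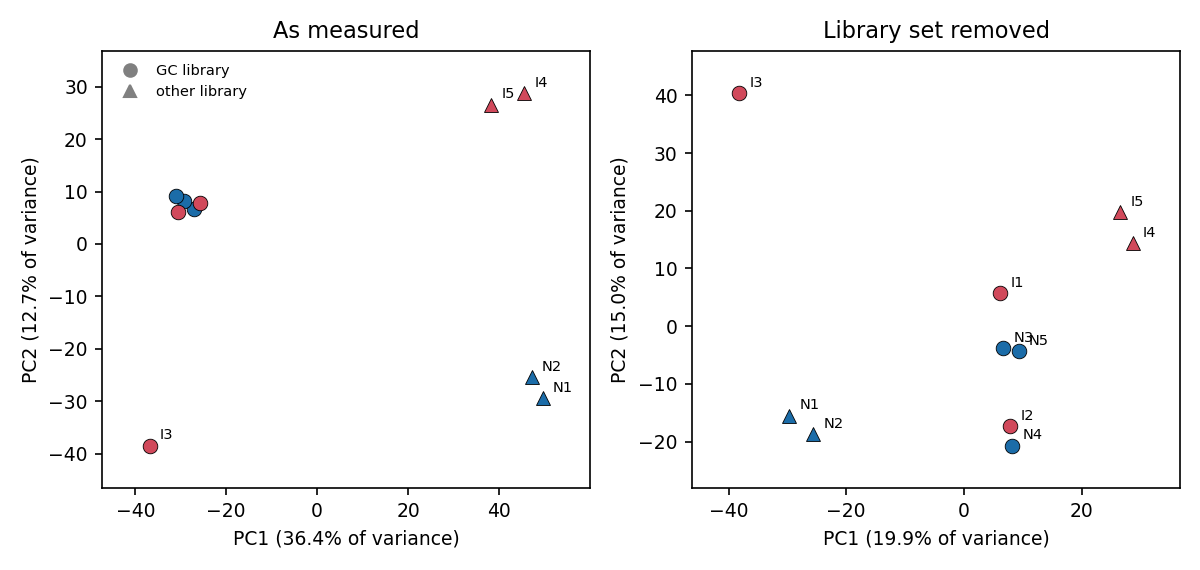
Principal components of log2 CPM over 10280 genes in the 10 cumulus libraries, as measured (left) and after removal of the library set (right), with Natural (N, blue) and IVF (I, red) pools, circles for GC libraries and triangles for other libraries, and replicate numbers beside the points outside the dense GC cluster on the left. The first component on the left (36.4% of the variance) separated the sets, and I3 stood apart from the other GC pools in both panels.

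The question of this comparison was whether conception by IVF left a lasting difference in the transcripts of adult cumulus cells. With the library set as a covariate, 1 of 10280 genes (0.00973%) passed the test of edgeR at an adjusted p below 0.05, and it was lower in IVF. That gene was Gcsh, which encodes the H protein of the mitochondrial glycine cleavage system, the lipoylated carrier that shuttles intermediates between the other subunits. At an unadjusted p below 0.05 there were 625 genes (6.08%), of which 320 were higher and 305 lower in IVF. Over all genes the median log2 fold change was 0.00 and the median standard error 0.27. In size, 185 genes had a fitted log2 fold change beyond 1 in either direction, 90 higher and 95 lower, and 1 of them was called.

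**Figure D2:**
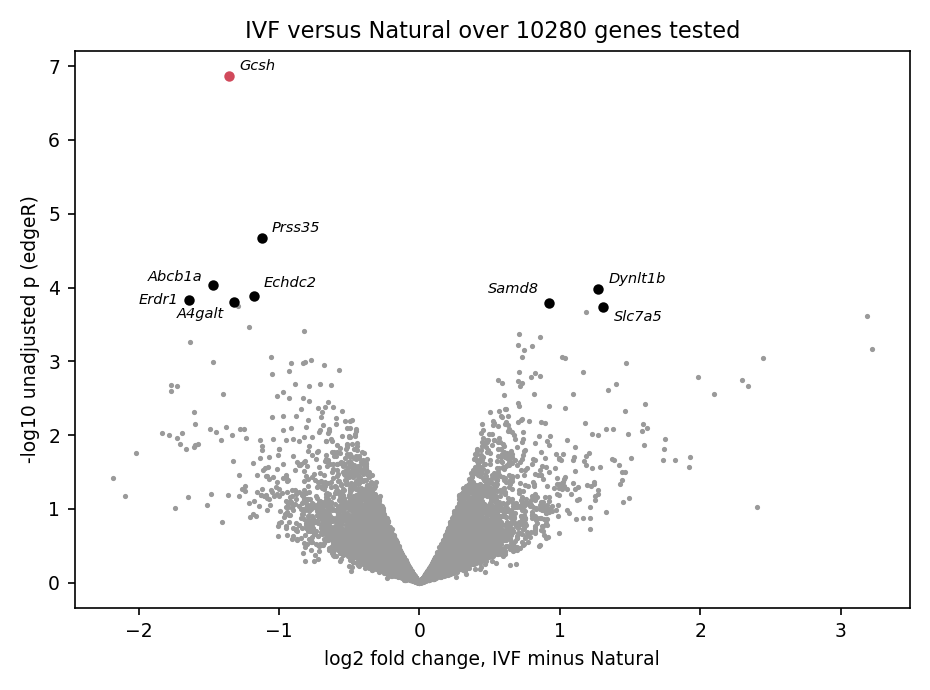
The log2 fold change (IVF minus Natural, horizontal axis) against the −log10 unadjusted p of edgeR (vertical axis) for each of the 10280 genes tested. Gcsh (red) was the single gene past an adjusted p of 0.05, and the labelled black points are among the 10 genes with the smallest p.

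Gcsh stood at 707, 668, 709, 462 and 521 CPM in Natural replicates 1 to 5. In IVF replicates 1 to 5 it stood at 203, 223, 206, 294 and 284 CPM. Every IVF pool lay below every Natural pool, in the GC libraries and in the others alike. Gcsh fell by 1.35 on the log2 scale (SE 0.16, 95% interval -1.69 to -1.02, adjusted p = 0.00140 in edgeR), from 614 ± 114 to 242 ± 43.8 CPM (SD, n = 5 each), a level 2.56 times higher in Natural. The values rest on 576 to 4057 reads per library. Within the GC libraries alone the log2 fold change was -1.43 (edgeR adjusted p = 0.0657), and within the others alone it was -1.25 (edgeR adjusted p = 4.11e-07). With each alike pair of the second set summed into 1 sample it was -1.38, and the call was lost (edgeR adjusted p = 0.0688), whereas without Natural replicate 5 it was -1.37 and the call was kept (edgeR adjusted p = 0.00304).

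The Gcsh gene lies on the minus strand of chr8:116981810-116993537 (GRCm38, the assembly of mm10), with 5 exons in transcript Gcsh-201. Transcripts of 5 other genes matched it over at least 15% of its 1443 bases, at 90.4% to 93.2% identity. Just 1 of them, Cysltr2, is named in the count table, with at most 2 reads in a library. The other 4 are processed pseudogenes.

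The other members of glycine cleavage and of the linked serine hydroxymethyl transfer did not pass the test. The pathway breaks glycine into carbon dioxide, ammonia and a methylene group for folate, and Gldc (P protein), Amt (T protein) and Dld (L protein) are its other subunits. Dld stood at 30.4, 37.6, 76.4, 47.5 and 75.1 CPM in Natural replicates 1 to 5 and at 57.4, 36.8, 44.1, 35.0 and 26.3 CPM in IVF. Shmt2, the mitochondrial enzyme that converts serine and glycine, stood at 220, 211, 123, 126 and 233 CPM in Natural and at 167, 149, 152, 146 and 125 CPM in IVF. Both groups overlapped for both genes (edgeR log2 fold changes -0.38 with SE 0.19 and -0.30 with SE 0.20, adjusted p = 0.844 and 0.875). The cytosolic enzyme Shmt1 and the subunit Amt were at 1.37 to 4.13 and 1.92 to 9.42 CPM in Natural, and the standard errors of their log2 fold changes were 0.54 and 0.40, wide beside the median of 0.27 over all genes. Gldc, the decarboxylase subunit, was at 0 in 8 of the 10 libraries and reached 2.58 CPM in Natural replicate 2. Of the 5 members tested, 1 was called, which was Gcsh itself, where 0.00973% of all genes were called. All 5 had fitted values below 0, as did 5117 of the 10280 genes tested. Their median log2 fold change was -0.30 (-0.13 without Natural replicate 5). The list holds Gcsh and was chosen with earlier results known, so these values are not separate evidence on the pathway.

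**Figure D3:**
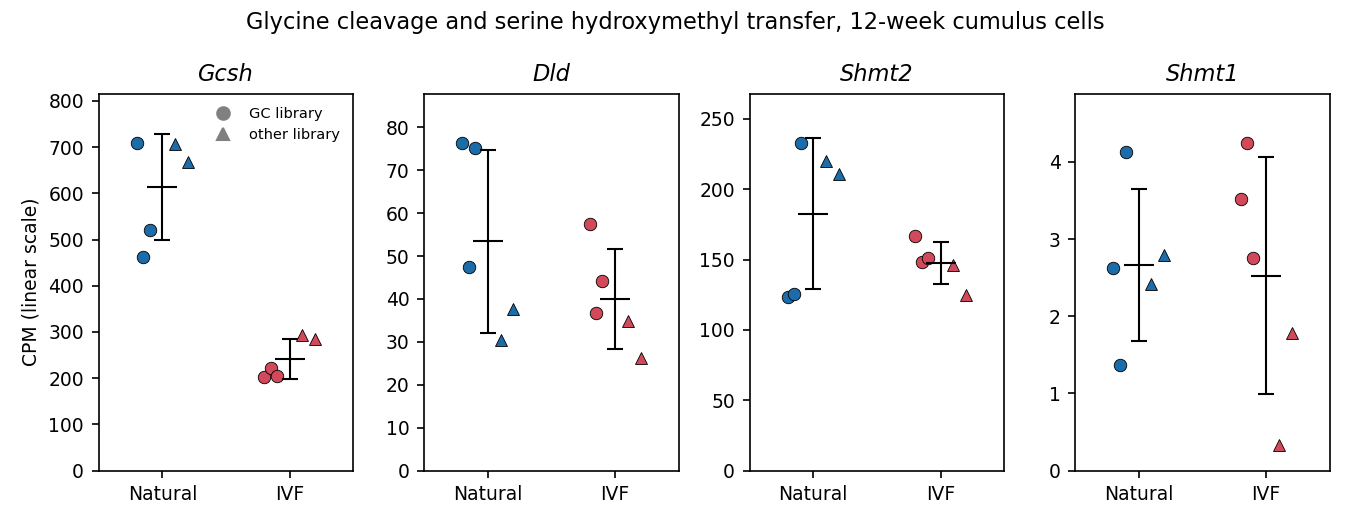
CPM (linear axes from 0) of Gcsh, Dld, Shmt2 and Shmt1 in each cumulus pool, Natural in blue and IVF in red, circles for GC libraries and triangles for other libraries, with the mean and SD of the 5 pools as bars. For Gcsh the IVF pools (203 to 294 CPM) lay below all Natural pools (462 to 709 CPM), and for the other 3 genes the groups overlapped.

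The genes next in order of p did not pass in edgeR, and they were chosen after their values were seen. In DESeq2 all 9 passed, with adjusted p from 5.37e-05 (Prss35) to 0.0150 (Samd8), and in limma voom Prss35 (adjusted p = 0.0440) and Echdc2 passed. Prss35, a serine protease of ovarian follicles, stood at 476, 441, 731, 319 and 555 CPM in Natural and at 253, 289, 233, 206 and 183 CPM in IVF. All IVF pools lay below all Natural pools (log2 fold change -1.12, SE 0.20, edgeR adjusted p = 0.110), and without Natural replicate 4 the gene was called (edgeR adjusted p = 0.00229). A stretch of 559 bases of its transcript matched D10Wsu102e at 90.9% identity, a gene with at most 88 reads in a library. Abcb1a, a drug efflux pump of the plasma membrane, stood at 20.0, 13.5, 10.5, 33.6 and 22.7 CPM in Natural and at 8.45, 9.35, 7.23, 6.57 and 4.71 CPM in IVF, again without overlap (log2 fold change -1.47, SE 0.29, edgeR adjusted p = 0.188). The amino acid transporter Slc7a5, which exchanges large neutral amino acids, stood at 6.28, 13.8, 3.85, 4.69 and 8.25 CPM in Natural and at 14.8, 11.5, 15.2, 28.9 and 21.4 CPM in IVF. Its groups overlapped, but not within either library set (log2 fold change 1.31, SE 0.28, edgeR adjusted p = 0.188). Samd8, a ceramide phosphoethanolamine synthase, had a log2 fold change of 0.92 (SE 0.19), and A4galt, which makes globo-series glycolipids, had one of -1.32 (SE 0.27), both with an edgeR adjusted p of 0.188. Erdr1 (-1.64, SE 0.34) and Gm9199 (-1.29, SE 0.27) were lower in fit with the same adjusted p.

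Over all genes tested, 78 (0.759%) had no overlap between the 5 IVF and 5 Natural pools, 41 of them higher and 37 lower in IVF. Within both library sets taken separately, 223 genes (2.17%) had no overlap in the same direction, 120 higher and 103 lower in IVF. Gcsh, Prss35, Abcb1a, Echdc2 and Gm9199 were in both counts.

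Of the cumulus genes that the text of the study names, 5 were matched to names in the table, and none of these passed in edgeR. In DESeq2, Echdc2 and Tmx1 passed, both lower in IVF (adjusted p = 0.00304 and 0.0470), and Echdc2 also passed in limma voom (adjusted p = 0.0445). Echdc2, an enoyl-CoA hydratase domain protein of mitochondria, stood at 1092, 1058, 407, 354 and 371 CPM in Natural and at 259, 103, 276, 345 and 313 CPM in IVF. The IVF pools lay below all Natural pools, though the closest values were 354 and 345 CPM (log2 fold change -1.18, SE 0.24, edgeR adjusted p = 0.188). Tmx1, a thioredoxin-related protein of the endoplasmic reticulum, stood at 719, 565, 794, 460 and 720 CPM in Natural and at 442, 208, 343, 430 and 428 CPM in IVF, also without overlap (log2 fold change -0.83, SE 0.21, edgeR adjusted p = 0.344). Nt5e, the ecto-enzyme that turns AMP into adenosine, stood at 266, 251, 108, 132 and 110 CPM in Natural and at 282, 136, 204, 349 and 397 CPM in IVF. Within each set its IVF pools lay above the Natural ones (log2 fold change 0.71, SE 0.19, edgeR adjusted p = 0.389). The adhesion molecule Nrcam stood at 2.90, 6.24, 24.5, 33.4 and 12.4 CPM in Natural and at 28.5, 54.6, 24.4, 25.0 and 35.5 CPM in IVF. Its log2 fold change was 0.62 in the GC libraries and 2.71 in the others (1.34 in all, SE 0.38, edgeR adjusted p = 0.443). N-cadherin (Cdh2), which joins cumulus cells to each other and to the oocyte, was at 25.0 ± 5.94 CPM in Natural and 25.5 ± 8.37 CPM in IVF (SD, n = 5 each; 95% interval of the log2 fold change -0.42 to 0.48).

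The 2 expressed matrix markers did not pass the test. Ptx3 stood at 27.3, 32.0, 34.6, 11.0 and 27.6 CPM in Natural and at 36.6, 20.0, 119, 47.9 and 52.3 CPM in IVF, with the highest value in IVF replicate 3 (log2 fold change 1.05, SE 0.37, edgeR adjusted p = 0.662). Without that pool the log2 fold change was 0.47. Tnfaip6 stood at 268, 183, 337, 151 and 296 CPM in Natural and at 144, 141, 283, 616 and 550 CPM in IVF. Its log2 fold change was -0.46 in the GC libraries and 1.38 in the others (0.26 in all, SE 0.33, edgeR adjusted p = 0.949). Of the 15 tested genes of cumulus expansion and ovulatory signalling, 0 were called and 11 were higher in fit, with a median log2 fold change of 0.11 (0.22 without Natural replicate 5). The most abundant member, the proteoglycan versican (Vcan), was at 379 ± 113 CPM in Natural and 301 ± 105 CPM in IVF, and the prostaglandin synthase Ptgs2 was at 247 ± 159 and 287 ± 174 CPM (SD, n = 5 each).

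Hormone and sterol genes showed no call in either direction. Among 13 genes of granulosa identity and hormone signalling the median log2 fold change was 0.04, and Inha was at 1289 ± 386 CPM in Natural and 1532 ± 155 CPM in IVF. Among 15 genes of steroidogenesis and luteinization it was 0.08, with -0.15 in the GC libraries and -0.01 in the others. That median was -0.08 without Natural replicate 4 and -0.07 without IVF replicate 3. Cyp11a1, which makes pregnenolone from cholesterol, was at 8594 ± 3636 CPM in Natural and 11322 ± 6437 CPM in IVF, with log2 fold changes of -0.60 in the GC libraries and 1.60 in the others. Hsd3b1, which makes progesterone from pregnenolone, was at 12694 ± 3185 and 10096 ± 2017 CPM, and Akr1c18, which inactivates progesterone, was at 2926 ± 695 and 4592 ± 2353 CPM. Among 22 genes of cholesterol synthesis 16 were higher in fit, with a median of 0.21 over all libraries, 0.30 in the GC libraries, -0.07 in the others and 0.11 without Natural replicate 5. Fdps, the farnesyl diphosphate synthase and the most abundant of them, was at 3232 ± 423 and 3237 ± 1777 CPM (SD, n = 5 each).

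Genes of the exchange between oocyte and cumulus cells, and of the sugar metabolism that supplies it, were likewise without a call. The 22 tested genes of oocyte-cumulus communication had a median log2 fold change of -0.03. The gap junction subunit Gja1 was at 3955 ± 1166 CPM in Natural and 3219 ± 1270 CPM in IVF, and the receptor Tgfbr1, which transmits signals of oocyte growth factors, was at 326 ± 129 and 430 ± 241 CPM. The 20 tested genes of glycolysis and lactate transport had a median of -0.08, and 13 of them were lower in fit. Aldoa was at 7495 ± 1085 and 7619 ± 609 CPM, and Ldha at 7342 ± 1072 and 6994 ± 1361 CPM (SD, n = 5 each). For Ldha the log2 fold change was -0.09 with SE 0.16.

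None of the 80 tested cytosolic ribosomal protein genes was called, 77 were higher in IVF in fit, and the median log2 fold change was 0.29, beside 0.00 over all genes. At an unadjusted p below 0.05, 24 of the 80 were higher and 0 lower, against 3.11% higher and 2.97% lower over all genes. Genes of this list can vary together, so these are not separate observations. Rpl26 matched the pseudogene Gm15772 at 99.5% identity. In IVF replicate 3 Rpl26 held 24 reads and Gm15772 128, whereas Rpl26 held 297 to 631 reads in the other libraries. How reads were divided between such copies is not known, and copies were not summed for this list. The median was 0.19 in the GC libraries, 0.50 in the others, and 0.31 without Natural replicate 5. Rplp0, the most abundant member, was at 1816 ± 369 CPM in Natural and 2093 ± 258 CPM in IVF. Rps18, a protein of the small subunit and chosen after its values were seen, stood at 122, 143, 152, 126 and 155 CPM in Natural and at 169, 219, 182, 176 and 209 CPM in IVF, without overlap (log2 fold change 0.45, SE 0.15, edgeR adjusted p = 0.655). Rpl41, of the large subunit, stood at 728, 727, 685, 659 and 715 CPM in Natural and at 739, 985, 761, 1141 and 1085 CPM in IVF, also without overlap (log2 fold change 0.41, SE 0.15, edgeR adjusted p = 0.714). Summed over the list, ribosomal protein transcripts took 16950, 17410, 22630, 18530 and 21010 CPM in Natural and 21960, 27420, 19960, 23290 and 23720 CPM in IVF, and these sums overlapped.

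Nuclear genes of mitochondrial energy metabolism had smaller medians of the same sign. Of 77 tested nuclear genes of oxidative phosphorylation, 0 were called and 61 were higher in fit, with a median log2 fold change of 0.12 (0.02 in the GC libraries and 0.30 in the others). Atp5b, the beta subunit of ATP synthase and the most abundant member, was at 2195 ± 709 CPM in Natural and 2074 ± 322 CPM in IVF. Cox7b, a subunit of cytochrome oxidase, stood at 65.9, 67.1, 40.2, 27.2 and 38.8 CPM in Natural and at 90.1, 90.1, 74.0, 74.9 and 85.7 CPM in IVF, without overlap (log2 fold change 0.86, SE 0.20, edgeR adjusted p = 0.300). Uqcr10, of complex III, stood at 146 ± 24.9 CPM in Natural and 214 ± 63.7 CPM in IVF (edgeR adjusted p = 0.650). Cox7b, Uqcr10 and Tfam were chosen after their values were seen. Of 77 mitochondrial ribosomal protein genes, 0 were called and 52 were higher in fit (median 0.16). Tfam, which packages and transcribes mitochondrial DNA, was at 13.8 ± 4.91 CPM in Natural and 9.23 ± 2.42 CPM in IVF (log2 fold change -0.55, SE 0.22, edgeR adjusted p = 0.723).

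The mitochondrially encoded genes took 2.99% ± 0.546 of all counts in Natural and 3.20% ± 0.821 in IVF (SD, n = 5 each). After centring on the library set the difference was 0.206 percentage points, with p = 0.333 in the exact permutation test within sets (two-sided, 120 assignments, smallest possible p 0.0167). The difference was 0.522 points in the other libraries alone, -0.00442 in the GC libraries alone, 0.0658 without IVF replicate 5, and 0.122 to 0.307 without any other single pool. With each alike pair of the second set averaged it was 0.127 points. The exact permutation test then gave p = 0.6 (40 assignments, smallest possible p 0.05). The share was 2.23% to 2.88% in the GC libraries and 3.49% to 4.34% in the others, without overlap between the sets. Of the 13 protein genes, ATP6, ATP8, COX2, COX3, ND3 and ND4L held at most 6 reads in a library and were not tested, so the share rests almost wholly on the other 7. COX1, the highest of these, was at 13539 ± 2281 CPM in Natural and 14952 ± 3191 CPM in IVF.

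**Figure D4:**
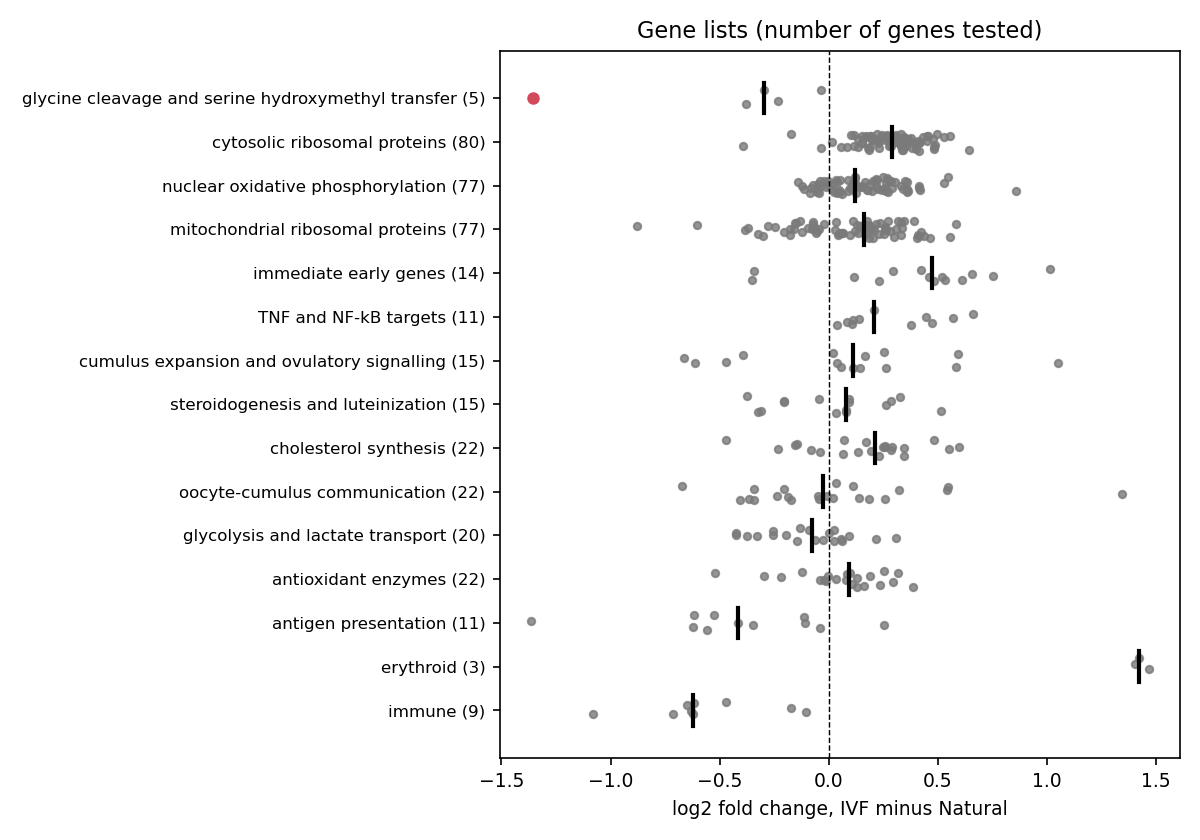
The edgeR log2 fold change (IVF minus Natural) of each tested gene in 15 gene lists, with the number of genes tested in brackets, the list's median as a vertical bar and the median of all 10280 genes as a dashed line. The red point is Gcsh, the single call, and the cytosolic ribosomal proteins lay mostly to the right of 0 with a median of 0.29.

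Immediate early genes, which are transcribed within minutes of a stimulus or of tissue handling, had a median log2 fold change of 0.47 over 14 tested members. None was called, 12 were higher in fit, and 5 had an unadjusted p below 0.05, all higher, where 3.11% of all genes were higher at that p. Zfp36, chosen after its values were seen, which speeds the decay of cytokine mRNA, stood at 31.4, 26.0, 9.44, 11.3 and 9.90 CPM in Natural and at 22.2, 8.07, 16.5, 77.0 and 90.2 CPM in IVF (log2 fold change 1.02, SE 0.25, edgeR adjusted p = 0.344). Egr1 stood at 223, 213, 17.7, 31.5 and 56.5 CPM in Natural and at 92.2, 29.7, 64.7, 346 and 346 CPM in IVF. For both genes the highest values were those of IVF replicates 4 and 5. All 11 tested targets of TNF and NF-kB signalling were higher in fit, with a median of 0.21 and 0 calls. Ier3, the most abundant, was at 1404 ± 658 CPM in Natural and 2120 ± 754 CPM in IVF (SD, n = 5 each).

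Other stress and growth lists held no call. The 19 tested genes of apoptosis and cell cycle arrest had a median log2 fold change of 0.20. Among them Trp53inp1, a p53 target of the autophagy machinery that was chosen after its values were seen, stood at 55.3, 57.0, 79.0, 62.2 and 56.9 CPM in Natural and at 40.5, 44.6, 55.1, 21.7 and 23.4 CPM in IVF, without overlap (log2 fold change -0.82, SE 0.19, edgeR adjusted p = 0.290). Gadd45a, a p53 target of growth arrest, was at 57.6 ± 19.7 and 96.4 ± 25.1 CPM (edgeR adjusted p = 0.401). The medians were 0.09 for 22 antioxidant enzymes, -0.01 for 14 heat shock proteins and chaperones, 0.04 for 11 proliferation genes, 0.02 for 15 genes of mitochondrial dynamics and maintenance, and -0.09 for 12 genes of basement membrane and matrix. Without Natural replicate 5 the median was 0.15 for the proliferation genes and 0.08 for those of basement membrane and matrix. Prdx1, the most abundant antioxidant enzyme, was at 2277 ± 730 CPM in Natural and 2336 ± 783 CPM in IVF.

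Of 14 subunits of the translation initiation factor eIF3, 0 were called and the median was 0.11 (-0.10 in the GC libraries and 0.43 in the others). Eif3k, chosen after its values were seen, stood at 52.2, 51.8, 48.3, 42.0 and 54.1 CPM in Natural and at 82.4, 66.3, 59.2, 99.8 and 105 CPM in IVF, without overlap (log2 fold change 0.71, SE 0.16, edgeR adjusted p = 0.293). The 5 tested genes of extracellular adenosine had a median of 0.28, which was -0.08 without IVF replicate 1, 0.14 without Natural replicate 1, 0.49 without IVF replicate 3 and 0.48 without Natural replicate 5. Immune-related lists had no call either, and their medians depended on the library set. For 15 interferon response genes the median log2 fold change was -0.64 in the GC libraries and 0.83 in the others, and -0.11 in all (0.02 without Natural replicate 5). For 11 antigen presentation genes it was -0.07 and -0.43, with -0.42 in all and 10 genes lower in fit. Without Natural replicate 5 the antigen presentation median was -0.14, and without IVF replicates 4 or 5 it was -0.15 or -0.13. For 12 genes of complement and coagulation it was 0.00 and -0.88, with -0.16 in all. Procr, the endothelial protein C receptor, chosen in the same way, stood at 184, 134, 107, 14.5 and 38.4 CPM in Natural and at 15.5, 13.4, 51.3, 22.3 and 25.0 CPM in IVF (log2 fold change -1.73, SE 0.48, edgeR adjusted p = 0.401).

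Markers of other cell types were low or tied to the library set or to single pools. The 15 oocyte markers summed to 39.2 to 69.7 CPM in the GC libraries and 0.860 to 1.21 CPM in the others, with Zp3 at 0 in 8 of the 10 libraries and Gdf9 at 20.4 CPM or less. The sum ranged from 0.860 to 47.0 CPM in Natural and from 1.14 to 69.7 CPM in IVF, and 0 of the 4 tested members were called. The 12 immune markers, mostly lysozyme (Lyz2), summed to 91.4 to 2441 CPM in Natural and 164 to 4529 CPM in IVF, with the highest sum in IVF replicate 2 and the next in Natural replicate 2, and all 9 tested members were lower in IVF in fit (median log2 fold change -0.62, 0 called). That median was 0.19 in the GC libraries and -1.81 in the others, -0.10 without Natural replicate 4, -1.61 without IVF replicate 2 and -0.91 without Natural replicate 5. The 7 erythroid markers summed to 20.4 to 407 CPM in Natural and 35.3 to 1009 CPM in IVF. The 3 tested members were all higher in fit with an unadjusted p below 0.05 in edgeR, against 3.11% of all genes. Their median log2 fold change was 1.42 (1.21 without Natural replicate 5), and 0 were called. Hba-a1, an alpha globin, stood at 182, 163, 29.4, 10.4 and 7.43 CPM in Natural and at 74.6, 18.7, 55.1, 179 and 563 CPM in IVF (log2 fold change 1.40, SE 0.39, edgeR adjusted p = 0.401). Theca and stroma markers reached 38.1 CPM, endothelial markers 23.4 CPM and oviduct markers 20.3 CPM in sum. The part of these cells in the values above was not tested, and in a pool fewer cells of a type cannot be told apart from less RNA per cell. Over all libraries each of these sums overlapped between the groups. Within sets some were separate, as were the Gcsh values. Separation within 1 set is weak evidence, because the smallest possible p of an exact two-sided permutation test is 0.1 in the GC set and 0.333 in the other. Oocyte markers were lower in the Natural than in the IVF pools of the GC set (39.2 to 47.0 against 48.7 to 69.7 CPM). In the other set, immune and endothelial markers were higher and oviduct markers lower in the Natural pools.

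The effect of conception differed between the library sets for 21 genes (0.204% of 10280) in the edgeR test of the interaction. The count was 2 without Natural replicate 1, 4 without Natural replicate 2, 6 without IVF replicate 4 and 11 without IVF replicate 5, the 4 pools of the second set, and up to 53 without a GC pool. The 3 with the smallest p were Akr1b3, Gpx3 and Sectm1b. Akr1b3, the aldose reductase that turns glucose into sorbitol, stood at 147, 239 and 200 CPM in the 3 GC pools of IVF, against 18.2, 13.3 and 7.84 CPM in the 3 of Natural. In the other set it stood at 12.6 and 9.09 CPM in IVF and at 13.3 and 17.6 CPM in Natural. Its log2 fold change was thus 3.89 in the GC libraries (edgeR adjusted p = 8.84e-05) and -0.51 in the others (edgeR adjusted p = 0.555), and the interaction was -4.40 (edgeR adjusted p = 0.000173).

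The pseudogene Gm6644, chosen after its values were seen, followed the same pattern, at 33.8, 51.0 and 55.1 CPM in the GC pools of IVF against 1.95 to 6.99 CPM in all other pools. It is a processed copy of the Akr1b3 mRNA on another chromosome. Akr1b3 lies on the minus strand of chr6:34302434-34317478 with 10 exons, and Gm6644 on the minus strand of chr1:55444074-55445024 without introns (GRCm38). The transcripts differ at 3 of 951 aligned bases (99.7% identity), and how the authors' counting treated reads that match both is not given in the sources used here. A stretch of both around the difference nearest to its middle is shown because it makes clear how little separates the copies. Letters are mRNA sense from the reference transcripts, and the capital marks the base that differs.
Akr1b3: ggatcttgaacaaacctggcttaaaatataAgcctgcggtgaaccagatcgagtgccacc
Gm6644: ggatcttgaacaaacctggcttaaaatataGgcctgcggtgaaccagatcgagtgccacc
The stretch spans bases 579 to 638 of Akr1b3-201 and 506 to 565 of Gm6644-201. With the 2 genes summed before the fit, the interaction was -4.38 (edgeR adjusted p = 0.000173), so it did not rest on how reads were divided between these 2. Transcripts of 7 genes in all matched Akr1b3, at 90.1% to 99.7% identity, and just 1 of them, Gm6644, is named in the count table. Reads that match the other copies could not be summed. Another of the 21 genes, the processed pseudogene Gm15772, lost its call on summing and was chosen after its values were seen. Its interaction was 4.63 alone (edgeR adjusted p = 0.00494). Summed with Rpl26, which it matches at 99.5% identity, the interaction was 1.32 (edgeR adjusted p = 0.279).

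Gpx3, a secreted glutathione peroxidase, had values on opposite sides in the sets. It stood at 195, 198 and 131 CPM in the GC pools of IVF and at 65.4, 95.4 and 98.4 CPM in those of Natural, and at 127 and 125 CPM in the other IVF pools and 504 and 452 CPM in the other Natural pools. The log2 fold changes were 1.01 and -1.92 (interaction -2.94, edgeR adjusted p = 0.000632). Sectm1b was at 0, 1.70 and 3.44 CPM in the GC pools of IVF and at 5.42, 5.08 and 7.84 CPM in those of Natural, but at 15.1 and 17.9 CPM in the other IVF pools with 0 reads in both other Natural pools. With the pairs of the second set summed, 0 genes were called for the interaction (425 at an unadjusted p below 0.05). Akr1b3 then had an adjusted p of 0.0634 and Gpx3 one of 0.225 (edgeR).

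**Figure D5:**
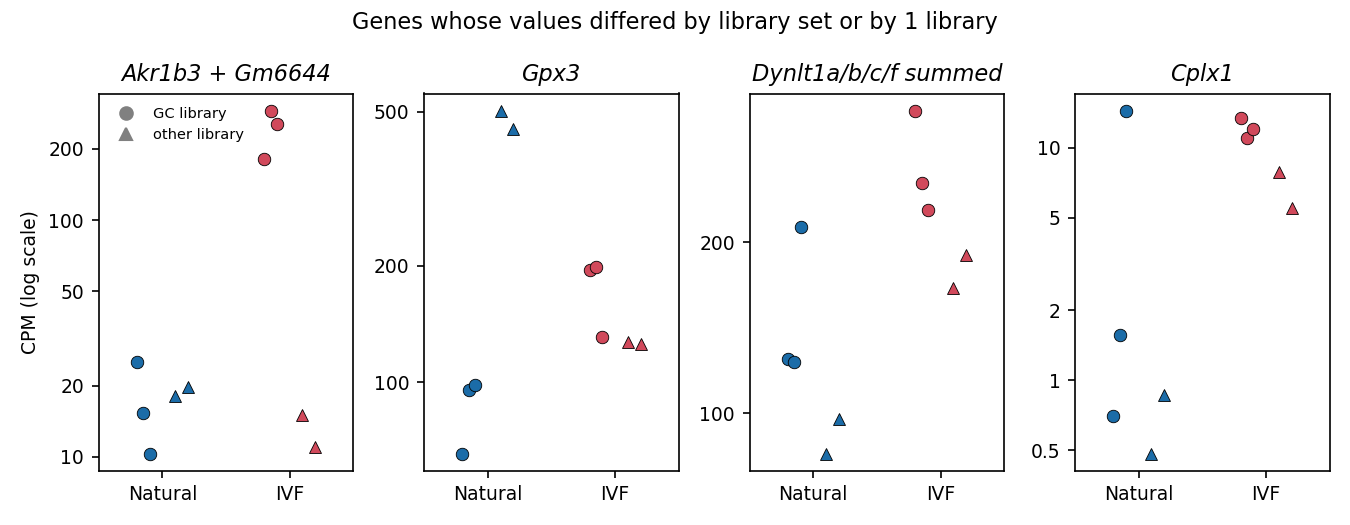
CPM on log axes of Akr1b3 summed with Gm6644, Gpx3, the 4 Dynlt1 genes summed, and Cplx1 in each cumulus pool, Natural in blue and IVF in red, circles for GC libraries and triangles for other libraries. Akr1b3 with Gm6644 stood at 181 to 290 CPM in the IVF pools of the GC set and at 25.2 CPM or less elsewhere, and Natural replicate 5 is the single high Natural point for Cplx1 (14.4 CPM) and for Dynlt1 (213 CPM).

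Natural replicate 5 decided the calls of several genes. Without it, 5 of 10480 genes (0.0477%) were called in edgeR, 3 higher and 2 lower in IVF, and they were Gcsh, A4galt, Dynlt1b, Clybl and Cplx1, named after their values were seen. Cplx1, a complexin that clamps membrane fusion in exocytosis, stood at 0.483, 0.860, 0.699 and 1.56 CPM in Natural replicates 1 to 4, at 14.4 CPM in Natural replicate 5, and at 13.4, 11.0, 12.1, 7.88 and 5.52 CPM in IVF. In reads these were 2, 4, 4 and 8, then 70, and 34 to 52. With all pools its log2 fold change was 1.75 (SE 0.62, edgeR adjusted p = 0.662), and without Natural replicate 5 it was 3.35 (edgeR adjusted p = 0.00304). Dynlt1b, a light chain of the dynein motor, stood at 29.2, 26.9, 33.6 and 46.3 CPM in Natural replicates 1 to 4, at 105 CPM in replicate 5, and at 193, 123, 116, 63.0 and 79.8 CPM in IVF. Its log2 fold change was 1.27 with all pools (SE 0.26, edgeR adjusted p = 0.188) and 1.63 without that pool (edgeR adjusted p = 0.00304). Clybl, a citramalyl-CoA lyase of mitochondria, had 6, 8, 3, 0 and 13 reads in Natural replicates 1 to 5 and 9, 18, 6, 103 and 118 in IVF, where the high pools were those of the second set. For Cplx1, Dynlt1b, A4galt (16.9 CPM, IVF 8.92 to 22.2 CPM) and Clybl (2.68 CPM, IVF 2.07 to 19.1 CPM) Natural replicate 5 lay within or above the IVF range. These genes were named because their call came without that pool, so its position there followed from the choice. For Gcsh (521 CPM), Akr1b3 (7.84 CPM) and Gm6644 (2.48 CPM) Natural replicate 5 lay with the other Natural pools. Those genes had been picked with that pool counted as Natural. The cause of this pattern was not tested.

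Dynlt1b shares its sequence with its neighbours on chromosome 17. Dynlt1a, Dynlt1c and Dynlt1f matched all 771 bases of its transcript at 98.8%, 99.2% and 99.1% identity, so single-gene values of this family are uncertain. Summed over the 4 genes, the family stood at 85.0, 97.6, 125, 123 and 213 CPM in Natural and at 341, 254, 228, 166 and 190 CPM in IVF (log2 fold change 0.89, SE 0.19, edgeR adjusted p = 0.184). Of the 8 tested dynein light chain genes, 0 were called, and 3 had an unadjusted p below 0.05, all higher, against 3.11% of all genes. These 3 include near-identical copies.

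The lower Gcsh level of cumulus cells was set beside the whole ovary and oocytes of the same age, whose tables were fitted separately. Of all genes tested, 0.00567% were called in the ovary table and 0.0277% in the oocyte table. Differences between the sample types were not tested. In whole ovary Gcsh stood at 91.2, 109, 58.3 and 67.5 CPM in 4 Natural samples and at 115, 45.2, 117, 51.7 and 59.2 CPM in 5 IVF samples (log2 fold change -0.06, SE 0.32, edgeR adjusted p = 0.953). Oocyte counts were summed by the leading fields of the library names. These fields were taken to mark a donor, which was not tested. The names of the GC cumulus libraries share these fields, and whether both came from the same mice was not tested. In these sums Gcsh stood at 5.34 to 8.48 CPM in 5 Natural donors (median 6.00) and at 1.34 to 23.3 CPM in 5 IVF donors (median 9.52), with a log2 fold change of 0.56 (SE 0.57, edgeR adjusted p = 0.909). In neither table did the groups separate for Gcsh. Prss35 was at 933 ± 312 CPM in Natural ovaries (n = 4) and 1185 ± 703 CPM in IVF ovaries (n = 5), and A4galt at 55.9 ± 16.8 and 29.6 ± 3.83 CPM (log2 fold change -0.92, SE 0.19, edgeR adjusted p = 0.142). Dynlt1b was at 3.19 ± 1.88 CPM in Natural ovaries and 6.78 ± 1.92 CPM in IVF ovaries (edgeR adjusted p = 0.241). The genes shown for the ovary were chosen after their values were seen, and other named genes are left out. Slc7a5 had the same sign as in cumulus cells (log2 fold change 0.56, SE 0.25). Nrcam (-1.22, SE 0.47), Nt5e (-0.87, SE 0.42) and Abcb1a (0.25, SE 0.28) had the opposite sign (edgeR adjusted p = 0.279, 0.370 and 0.703).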

How the data were processed

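RNA-seq libraries were made per the study's methods with a low-input SMART-Seq protocol. The authors deposited whole-number read counts per gene for the 12-week cumulus libraries. The submitters' processing notes name Trimmomatic 0.32, STAR 2.3.0e, featureCounts 1.5.0 and DESeq2, and the methods name the mm10 genome. Most low counts were even (72.6% to 75.2% of counts from 1 to 20), and the cause was not tested. Totals were 2532824 to 6345249 counts per library, so genes near 1 CPM rest on a few reads. Counting intervals were not computed.

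Libraries were grouped by their treatment label. All 10 columns were used. For 4 libraries an earlier record of the same name exists and was treated as the same library. Counts were scaled by TMM, filtered with filterByExpr and tested with edgeR 4.0.16 (limma 3.58.1, R 4.3.3) by the quasi-likelihood test, two-sided, with the library set as a covariate and Benjamini-Hochberg adjustment over all genes tested. The script was tested on simulated data. Single values per library were compared by exact permutation within sets. Ovary libraries and oocyte counts summed by donor were fitted separately. Alternatives were DESeq2 1.42.0, limma voom, RLE size factors, other filters, single library sets, a replicate block and leaving out each library.

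The members and gene lists were chosen with earlier results of these data known. Named genes were the 3 markers, 5 genes named for cumulus cells in the study's text, called genes, the called or up to 4 most abundant members of each list, and the 3 genes with the smallest p of the interaction. A further name in that text, Aaglat, matched no name read here. Whether it stands for A4galt, whose values are given above, was not established. Genes outside this rule are marked as chosen after their values were seen. Also named are Spp1, the most abundant transcript, near-identical copies of named genes, and genes that did not pass the filter. Positions and transcripts were taken from the GRCm38 annotation. Same-numbered libraries of the groups did not all deviate together, so the numbers were not used as pairs.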

Additional observations from a re-analysis of the deposited data

Results flagged for a closer look

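In groups of 5 cumulus pools, a pool was singled out where its gap to the nearest other pool exceeded 0.71 of the group's range. This marked 3 of 46 groups of values, where chance marks about 1 in 20. Cdh2 was at 14.6 CPM in Natural replicate 2, below the other Natural pools (26.3 to 28.9 CPM). Dynlt1b was at 104.8 CPM in Natural replicate 5, above the other Natural pools (26.9 to 46.3 CPM). Spp1 took 37.2% of counts in IVF replicate 3, against 16.1% to 20.6% in the other IVF pools. The effect of IVF differed between the library sets in the edgeR interaction test for Akr1b3 (-4.40 on the log2 scale, adjusted p = 0.000173), for Gpx3 (-2.94, adjusted p = 0.000632) and for Sectm1b (11.09, adjusted p = 0.00376). The Sectm1b value depends on the prior count, because both Natural pools of the second set held 0 reads. The causes were not tested.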

How the results depend on the processing

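Against 1 called gene, the count of calls was 0 without the library set (304 at an unadjusted p below 0.05), 2 in the GC libraries alone, 639 in the other libraries alone (275 higher and 364 lower), 24 in DESeq2 (13 higher), 5 in limma voom, 104 without an expression filter and 2 with at least 10 counts in every library. It was 1 to 5 when each library was left out, with 5 without Natural replicate 5, 3 without Natural replicate 4, and 2 without Natural replicate 3 or without IVF replicate 1. The replicate block with the library set gave 24 calls (11 higher), but same-numbered pools correlated at -0.147 to 0.262 in their deviations, and 4 of 10 libraries correlated best with their own number. Its calls included Gcsh, Prss35, Abcb1a, Dynlt1b, A4galt and Echdc2. Gcsh kept its direction in all 21 alternatives and its call in 18, including every library left out (adjusted p 0.00130 to 0.0158). It lost the call without the library set (adjusted p = 0.178), in the GC libraries alone (0.0657) and with the alike pairs summed (0.0688), all in edgeR. Summing or averaging these pairs, halving the counts, summing gene copies and leaving out ovary or oocyte samples were alternatives chosen after seeing the data. With the pairs summed, 0 genes were called (388 unadjusted).

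Against 21 interaction calls, there were 101 in DESeq2, 206 without a filter, 51 with at least 10 counts in every library, 2 to 53 with each library left out and 0 with the pairs summed (425 unadjusted). The lowest were 2 and 4 without Natural replicates 1 and 2, and 6 and 11 without IVF replicates 4 and 5.

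Some values near 0 changed sign. Tnfaip6 was at -0.464 in the GC libraries and -0.0177 with the pairs summed, and with each library left out it ranged from -0.0248 (without Natural replicate 2) to 0.487 (without IVF replicate 2). Cdh2 was at -0.0043 in the GC libraries and -0.0305 in limma voom, and it ranged from -0.13 (without IVF replicate 3; -0.0863 without Natural replicate 2) to 0.163 (without Natural replicate 1). The difference in mitochondrial share was -0.00442 percentage points in the GC libraries. Gcsh in the ovary ranged from -0.263 (without IVF replicate 1) to 0.0835 (without IVF replicate 2), and it was also above 0 without Natural replicate 2 (0.0777), IVF replicate 4 (0.0429) or IVF replicate 5 (0.0104). Gcsh in oocytes ranged from -0.0762 (without IVF donor 3) to 0.838 (without IVF donor 1). The causes were not tested.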
